A study of Mus musculus with 15 samples.

Results

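Neurotrophins are secreted growth factors that support the survival of neurons, the growth of their processes and the strength of their synapses. They are made as precursors, and the mature proteins bind receptor tyrosine kinases of the Trk family, whereas the precursors bind the p75 receptor together with sortilin. Trk receptors signal through the MAP kinase, phosphoinositide 3-kinase and phospholipase C pathways, and the brain also makes truncated Trk forms that lack the kinase, in large part in astrocytes. The genes described here are 2 ligands (Bdnf and Ntf3), 2 Trk receptors (Ntrk2, which encodes TrkB, and Ntrk3, which encodes TrkC), the p75 receptor (Ngfr) and sortilin (Sort1). They are 6 of the 20972 genes with a symbol on the array and were taken by name, through the RefSeq identifiers of their probes. They had 13 probes, and all 13 passed the filter on dim probes.

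RNA of the left hemibrain of male C57BL/6j mice was measured on 15 Agilent arrays after 24 weeks on a diet begun at 3 weeks of age. The n-3 enriched diet (ERD) had n-3 and n-6 polyunsaturated fatty acids at 7 to 1, the balanced diet (BLD) at 1 to 1 and the standard diet (STD) at 1 to 6, all with equal caloric content and 5 arrays each. On every array hemibrain RNA was labelled with Cy5, and RNA pooled from 11 cell lines of the mouse was labelled with Cy3 as a common reference. Values are log2 ratios of the hemibrain over this pool, and a difference is that of a pair of diets on this scale, so the diets are compared through the pool.

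Spots well above background in Cy5 numbered 17720 to 28117 on ERD arrays, 22467 to 31991 on BLD arrays and 24764 to 29140 on STD arrays. Of the 11 neuron markers, 10 were above background on all 15 arrays. Array ERD 1 had the fewest spots above background and was the lowest of all arrays on 6 of the 13 probes. Where leaving out ERD 1 or ERD 2 moved a difference between ERD and STD by over 1.5 times, the value without it is given for the probes described in full. The 15 arrays lay on 8 slides scanned over 2 days, with 1 ERD, 3 BLD and 0 STD arrays on the second. The labels number each hemibrain but do not state how animals were housed or processed together, so p-values measure the spread between these samples. In a piece of tissue as large as a hemibrain, fewer cells of a type and less RNA per cell cannot be told apart.

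No diet comparison called any of the 13 probes at a Benjamini-Hochberg adjusted p of 0.05 in limma. Over all 26338 probes tested, the same threshold called 0.209% between ERD and STD (26 higher and 29 lower), 0.00759% between BLD and STD, 0% between ERD and BLD and 0.0456% in the F test over the 3 diets. An unadjusted p under 0.05 was reached by 3 member probes between ERD and STD, against 14.5% of all probes, by 1 between BLD and STD, against 10.3%, and by 3 between ERD and BLD, against 10.6%. For 1 member probe in each comparison the values of the compared diets were fully separate, against 3.77%, 2.79% and 1.4% of all probes in the same order of comparisons. That probe was the dim Sort1 probe A_51_P517145 each time.

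The member probes lay lower in ERD than in STD for 11 of 13 (48.3% of all probes), with a median difference of -0.30, where the median of all probes was 0.0096. Between BLD and STD 7 of 13 were lower (40.1% of all probes), with a median of -0.06 against 0.048 for all probes. Between ERD and BLD 10 of 13 were lower (58.7% of all probes), with a median of -0.18 against -0.0439. These counts moved with the scaling. With the ratios of the scanner software, 7 of 13 were lower between ERD and STD, 11 of 13 between BLD and STD, and 5 of 13 between ERD and BLD. Probes of 1 gene read transcripts of the same locus in the same RNA and are not separate observations of a diet.

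**Figure D1:**
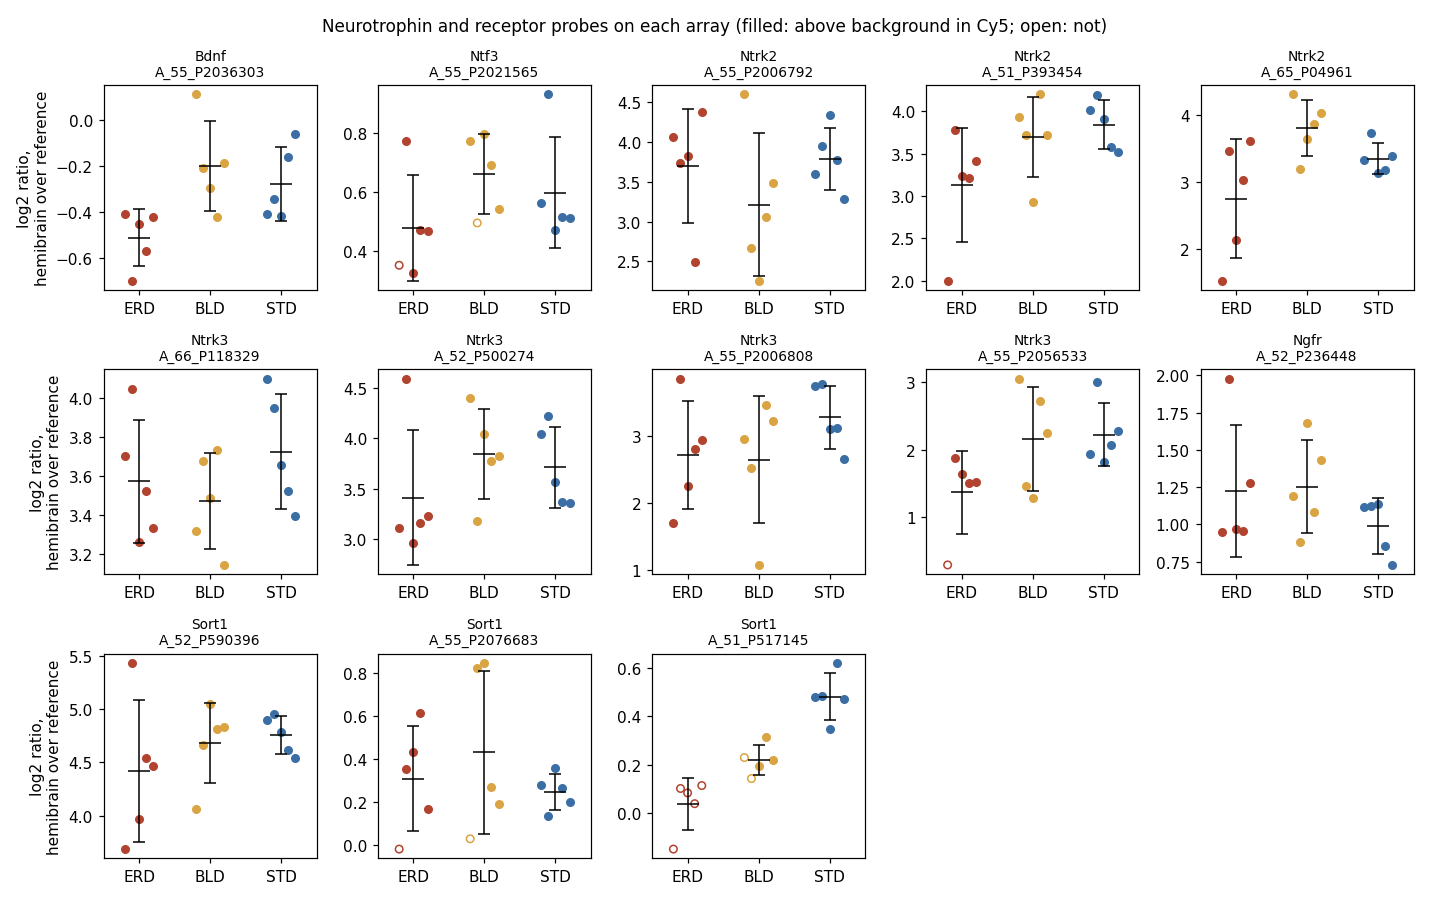
Log2 ratio of hemibrain over reference (vertical axis, own scale in each panel) for the 13 probes on each of the 5 arrays of ERD, BLD and STD, with the mean and SD of each diet as black bars. The diets overlap in every panel except that of Sort1 A_51_P517145, where all 5 ERD points are open, which marks them as not well above background.

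Bdnf, the ligand of TrkB that neurons release with activity, was read by 1 probe (A_55_P2036303, NM_007540), above background in both channels on all 15 arrays. Its log2 ratios were -0.41, -0.70, -0.45, -0.57 and -0.42 on the ERD arrays, 0.11, -0.21, -0.29, -0.42 and -0.18 on the BLD arrays, and -0.41, -0.34, -0.42, -0.16 and -0.06 on the STD arrays. ERD held the lowest values, but its upper end reached into both other diets. The means were -0.51 ± 0.12 in ERD, -0.20 ± 0.20 in BLD and -0.28 ± 0.16 in STD (SD, n = 5 each).

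Bdnf differed by -0.31 ± 0.12 (SE) between ERD and BLD, with an unadjusted p of 0.0167 and an adjusted p of 0.414 in limma. Between ERD and STD the difference was -0.23 (95% interval -0.48 to 0.01, adjusted p = 0.373), and between BLD and STD it was 0.08 (-0.17 to 0.33, adjusted p = 0.846). BLD and STD, the neighbours in this order, did not differ beyond their spread. Within the slides that held both diets, ERD minus BLD was -0.32, -0.52 and -0.24, and ERD minus STD was -0.35, -0.04 and -0.26. The direction of both ERD differences for Bdnf was kept under every alternative tried.

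Ntf3, which encodes neurotrophin-3, the ligand of TrkC, was close to background. Its probe (A_55_P2021565) was above background in Cy5 on 13 of the 15 arrays and in Cy3 on 0, so its ratio rests on a reference that was not measured. The log2 ratios averaged 0.48 ± 0.18 in ERD, 0.66 ± 0.14 in BLD and 0.60 ± 0.19 in STD (SD, n = 5 each). The differences were -0.12 between ERD and STD, 0.06 between BLD and STD and -0.18 between ERD and BLD, with adjusted p of 0.657, 0.885 and 0.596 in that order of comparisons. Without ERD 2 the difference between ERD and STD was -0.20. From Cy5 alone Ntf3 differed by 0.05, -0.06 and 0.10 in the same comparisons, so the sign of each turned.

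Ntrk2 had 3 probes. The mouse gene makes a full-length receptor with its kinase and a truncated receptor. A_51_P393454 is assigned to NM_001025074 (full-length) and A_55_P2006792 and A_65_P04961 to NM_008745 (truncated). The names full-length and truncated-form follow these assignments alone. The files do not say which further transcripts each probe detects.

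The full-length probe A_51_P393454, spotted 10 times on each array, read 2.001, 3.78, 3.24, 3.22 and 3.41 on the ERD arrays, 3.94, 3.72, 2.93, 4.20 and 3.72 on the BLD arrays, and 4.01, 4.20, 3.91, 3.58 and 3.52 on the STD arrays. ERD 1 was far below the rest. The other 4 ERD values lay within the BLD range, and ERD 2 alone reached the STD range. The mean was lower in ERD (3.13 ± 0.67) than in BLD (3.70 ± 0.47) and STD (3.84 ± 0.29, SD, n = 5 each). The difference between ERD and STD was -0.71 ± 0.29 (SE), with an adjusted p of 0.276 in limma. Without ERD 1 it was -0.43 (adjusted p = 0.418), and with the ratios of the scanner software it was 0.0019.

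The truncated-form probe A_65_P04961 read 1.53, 3.46, 2.15, 3.04 and 3.61 on the ERD arrays, 4.31, 3.20, 3.65, 3.87 and 4.04 on the BLD arrays, and 3.33, 3.73, 3.14, 3.19 and 3.39 on the STD arrays. ERD spread widest, from the lowest value of all arrays to one inside the BLD range. ERD minus BLD was -1.05 ± 0.33 (SE), the largest difference of any member probe, with an unadjusted p of 0.00613 and an adjusted p of 0.341 in limma. Between ERD and STD the difference was -0.59 (adjusted p = 0.42), and -0.29 without ERD 1. ERD minus BLD was -0.75 without ERD 1, -0.28 from Cy5 alone and -0.18 with the ratios of the scanner software, and Cy3 was above background on 3 of the 15 arrays.

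The other truncated-form probe, A_55_P2006792, averaged 3.70 ± 0.72 in ERD, 3.21 ± 0.90 in BLD and 3.79 ± 0.40 in STD (SD, n = 5 each), so that ERD minus BLD was 0.49 (95% interval -0.36 to 1.33, adjusted p = 0.689). Its 4 lowest arrays, from 2.25 to 3.05, were the 4 of the second scan day (ERD 4 and BLD 2, 3 and 4). Within the first day ERD minus BLD was -0.04, within the second -0.17, and with scan day as a block -0.09, so the sign turned. With slide as a block it stayed positive. Within the slides that held both diets it was 0.03, -0.54 and 0.90. Between ERD and STD the difference was -0.09 (adjusted p = 0.943), and -0.18 without ERD 1. With scan day as a block it was 0.20, and on the first scan day alone 0.215, so its sign turned too. Both probes carry the same transcript identifier, and over both scan days ERD minus BLD was 1.54 apart for them, with an exact permutation p of 0.0556 and 0.381 after adjustment over the 36 probe-pair comparisons, which were chosen after the values were seen. Across the 15 arrays both Ntrk2 NM_008745 probes correlated at a Pearson r of -0.04, whereas A_51_P393454 and A_65_P04961 correlated at 0.73 (a description, with arrays of all diets pooled). Astrocytes carry much of the truncated receptor, and the summed Cy5 level of the 9 astrocyte markers, all tested, was 16.08 to 16.83 on ERD arrays, 16.11 to 16.74 on BLD arrays and 16.82 to 17.30 on STD arrays (log2). As log2 ratios, the scale of the Ntrk2 values, the diets overlapped. The mean ratio of the 9 markers was 2.93 to 3.32 on ERD arrays, 2.88 to 3.19 on BLD arrays and 3.06 to 3.20 on STD arrays. None of the 9 was called between ERD and STD, and the part of these markers in the Ntrk2 values was not tested.

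Ntrk3 had 4 probes, A_66_P118329 and A_55_P2056533 assigned to NM_008746 (full-length TrkC) and A_52_P500274 and A_55_P2006808 to NM_182809 (truncated TrkC). As for Ntrk2, the names of the forms follow these assignments alone. The full-length probe A_55_P2056533 read 0.30, 1.88, 1.64, 1.50 and 1.52 on the ERD arrays, 3.05, 1.47, 1.29, 2.73 and 2.25 on the BLD arrays, and 1.94, 3.00, 1.82, 2.07 and 2.28 on the STD arrays. ERD 1 was the lowest array and was not above background. The other 4 ERD values lay within the BLD range, and 1 of them reached the STD range. The difference between ERD and STD was -0.85 ± 0.36 (SE, adjusted p = 0.293), and -0.58 without ERD 1. From Cy5 alone it was -0.43, and Cy3 was above background on 2 of the 15 arrays and on 0 of the ERD and STD arrays, so this ratio rests on a reference that was hardly measured. Between ERD and BLD it was -0.79 (adjusted p = 0.466), and -0.52 without ERD 1.

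The full-length probe A_66_P118329, which was above background in both channels on all arrays, moved less. It averaged 3.57 ± 0.32 in ERD, 3.47 ± 0.25 in BLD and 3.73 ± 0.29 in STD (SD, n = 5 each), with differences between -0.25 and 0.10 and adjusted p of at least 0.617. The NM_182809 probes differed between ERD and STD by -0.30 (A_52_P500274) and -0.57 (A_55_P2006808), with adjusted p of 0.658 and 0.558 in that order. Without ERD 2 the difference for A_52_P500274 was -0.60, and without ERD 1 that for A_55_P2006808 was -0.32, or -0.85 without ERD 2. That for A_66_P118329 was -0.15, and -0.27 without ERD 2. For A_66_P118329, A_52_P500274 and A_55_P2006808 the sign of ERD minus STD turned with the ratios of the scanner software (0.017, 0.12 and 0.12). No pair of Ntrk3 probes differed between diets after adjustment over the 36 probe-pair comparisons (smallest adjusted p of an exact permutation test for Ntrk3 pairs 0.381).

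**Figure D2:**
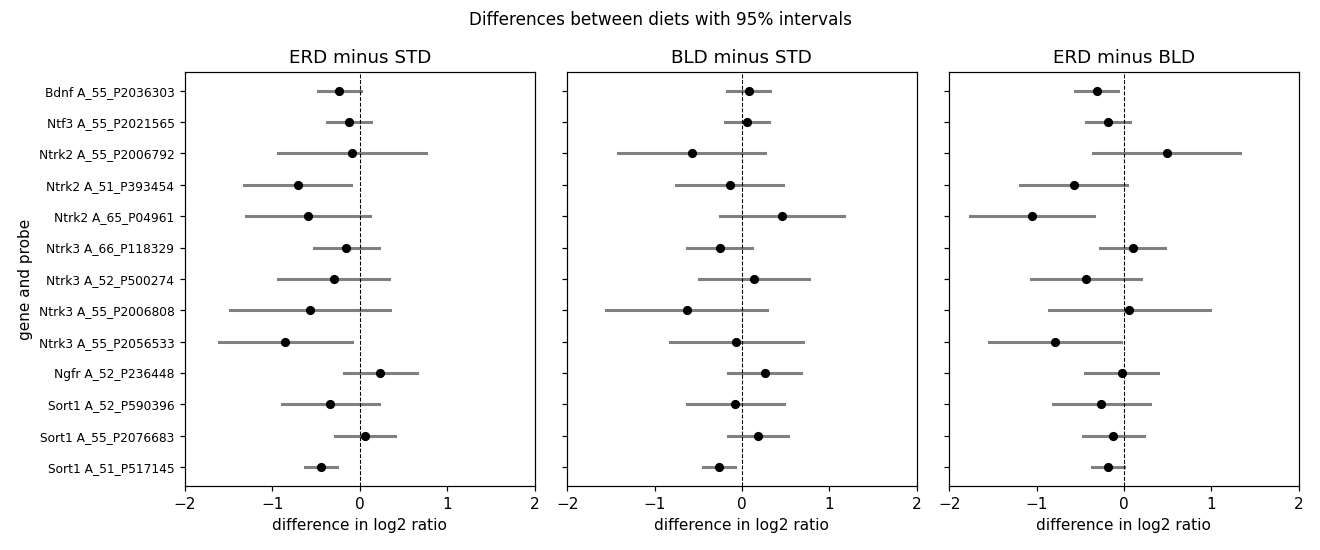
Difference in log2 ratio (horizontal axis) for each of the 13 probes (vertical axis) with its 95% interval, for ERD minus STD, BLD minus STD and ERD minus BLD. Sort1 A_51_P517145 has the interval farthest from 0 for its width in ERD minus STD (-0.63 to -0.26), and the widest intervals in that comparison are those of Ntrk3 A_55_P2006808 and Ntrk2 A_55_P2006792.

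Ngfr, which encodes the p75 receptor shared by all neurotrophins, was read by 1 probe (A_52_P236448, NM_033217) spotted 10 times on each array and above background in Cy5 on all of them. Its log2 ratios were 0.95, 1.98, 0.97, 0.96 and 1.28 on the ERD arrays, 1.19, 0.88, 1.68, 1.08 and 1.43 on the BLD arrays, and 1.12, 1.12, 1.13, 0.86 and 0.73 on the STD arrays. All 3 diets overlapped, and ERD 2 was the highest array. The difference between ERD and STD was 0.23 (95% interval -0.19 to 0.65, adjusted p = 0.6), and 0.046 without ERD 2. It was 0.26 between BLD and STD (-0.16 to 0.68, adjusted p = 0.658) and -0.03 between ERD and BLD (-0.45 to 0.39, adjusted p = 0.976). In adult brain this receptor is known mainly from cholinergic neurons of the basal forebrain, and the summed Cy5 level of their markers was 9.16 to 9.75 on ERD arrays, 9.14 to 9.62 on BLD arrays and 9.22 to 9.44 on STD arrays (log2, 6 of 7 markers tested). The mean log2 ratio of these markers was 0.52 to 1.21 on ERD arrays, 0.58 to 1.01 on BLD arrays and 0.56 to 0.83 on STD arrays.

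Sort1, the receptor that pairs with p75 for precursor neurotrophins and sorts them inside the cell, was read by 3 probes. The probe A_51_P517145 (NM_019972) read -0.15, 0.10, 0.08, 0.04 and 0.11 on the ERD arrays, 0.23, 0.14, 0.19, 0.31 and 0.22 on the BLD arrays, and 0.48, 0.48, 0.35, 0.62 and 0.47 on the STD arrays. The ratios of the 3 diets did not overlap, ERD lowest and STD highest. The probe was above background in Cy5 on 0 of 5 ERD arrays, 3 of 5 BLD arrays and 5 of 5 STD arrays, so the ERD level is only a bound and the distance of ERD from the other diets has no exact size. The probe passed the filter through its STD and BLD arrays alone. Neither its test nor its lack of overlap is therefore taken as support for a difference.

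For A_51_P517145 the difference between ERD and STD was -0.44 ± 0.088 (SE), with an unadjusted p of 0.000134 and an adjusted p of 0.0573 in limma. From the Cy5 levels after loess and Aquantile, the means were 6.30 in ERD and 6.71 in STD (log2), or 1.33-fold apart. Raising ERD levels to the lowest level of any probe above background on their arrays changed nothing, because all of them already lay higher. That floor is the lowest over all probes of an array, so this step is no check on the 1.33-fold gap. From Cy5 alone, with quantile normalization, the difference was -0.30 (log2, adjusted p = 0.0994), so its size depends on the normalization. Over its alternatives the adjusted p ran from 0.0215 to 0.792 and passed the threshold under 7 of 31. It passed without ERD 3 (0.0455), with no detection filter (0.0215) and with the ratios of the scanner software (-1.69, adjusted p = 0.0218), and was farthest from it with median centring of each array (-0.18, adjusted p = 0.792). Within the 3 slides that held both diets the differences were -0.38, -0.40 and -0.51. Between BLD and STD the difference was -0.26 (adjusted p = 0.418), and between ERD and BLD it was -0.18 (adjusted p = 0.484).

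The remaining Sort1 probes did not set the diets apart in this way. A_52_P590396, assigned to the same transcript and above background in Cy5 on all 15 arrays, read 3.69, 5.43, 3.97, 4.55 and 4.46 on the ERD arrays, 4.06, 4.66, 5.04, 4.81 and 4.83 on the BLD arrays, and 4.90, 4.95, 4.79, 4.62 and 4.54 on the STD arrays. The diets overlapped, and ERD held both the lowest and the highest array. Its difference between ERD and STD was -0.34 (95% interval -0.89 to 0.22, adjusted p = 0.564), -0.16 without ERD 1 and -0.59 without ERD 2. A_55_P2076683 (NM_001271599) differed by 0.06 (-0.29 to 0.41, adjusted p = 0.89), and by 0.14 without ERD 1. The difference between ERD and STD was 0.51 apart for A_55_P2076683 and A_51_P517145. An exact permutation test gave a p of 0.00794, the smallest that 5 against 5 arrays can give, and 0.286 after adjustment over the 36 comparisons. A_51_P517145 was above background in Cy5 on 0 of 5 ERD arrays, and A_55_P2076683 on 13 of all 15. The probe pairs were chosen after the values were seen, so this p is not taken as support for a difference either.

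**Figure D3:**
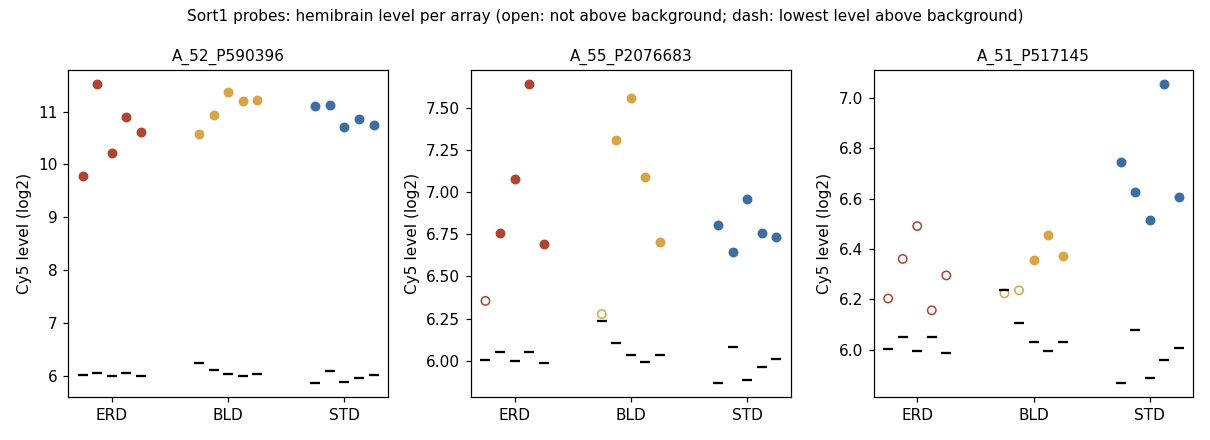
Cy5 level of hemibrain RNA (log2, vertical axis, own scale in each panel) for the 3 Sort1 probes on each array of ERD, BLD and STD. Open points are not well above background, and a dash marks the lowest level that was above background on the same array. For A_51_P517145 all 5 ERD points are open and all 5 STD points are filled, while A_52_P590396 is filled throughout.

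The genes around the neurotrophins were taken from 6 lists of 164 genes, of which 145 were tested. Between ERD and STD 1 was called, lower in ERD (0.209% of all probes were called), 20 were lower and 7 higher at an unadjusted p under 0.05 (14.5% of all probes), and 95 of 145 lay lower (48.3% of all probes), with a median of -0.11. Between BLD and STD 0 were called, and 10 were lower and 9 higher at an unadjusted p under 0.05 (10.3% of all probes). Between ERD and BLD 0 were called, with 20 lower and 6 higher at that p (10.6% of all probes). The called gene was Ndn, which encodes necdin, a protein known to bind the p75 and Trk receptors in neurons. It averaged 1.33 ± 0.38 in ERD, 2.16 ± 0.36 in BLD and 2.43 ± 0.25 in STD (SD, n = 5 each), a difference of -1.10 ± 0.20 (SE) between ERD and STD with an adjusted p of 0.0443 in limma. The ERD and STD arrays did not overlap, which held for 3.77% of all probes. The call was kept under 10 of 33 alternatives, among them Aquantile scaling, which leaves the log2 ratios as they were. Leaving out 1 array at a time kept it 3 times of 15 (without ERD 3, BLD 1 or BLD 3), and the adjusted p reached 0.139 without ERD 4.

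Among the genes that process and release the ligands, 13 of 16 lay lower in ERD than in STD (median -0.15) and 0 were called. Serpine2, a protease inhibitor outside the cell, differed by -1.01 (adjusted p = 0.0994), and Chgb, a protein of secretory granules, by -0.58 (adjusted p = 0.348). Of the Trk adaptors and downstream kinases 32 of 53 lay lower (median -0.06) and 0 were called. Map2k1, which encodes a kinase of the MAP kinase cascade, differed by -0.74 (adjusted p = 0.177). Of the p75 partners and downstream genes 16 of 29 lay lower (median -0.06), Ndn among them.

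Of the regulators of Bdnf transcription 14 of 21 lay lower between ERD and STD (median -0.11) and 0 were called. Arnt2, a partner of activity-dependent transcription factors, differed by -0.64 (adjusted p = 0.274), and Srf, a transcription factor of immediate early genes, by 0.22 (adjusted p = 0.328). Of the transcripts known to respond to BDNF in neurons 16 of 17 lay lower (median -0.40) and 0 were called, with 5 lower and 0 higher at an unadjusted p under 0.05, where 48.3% of all probes lay lower and 14.5% reached that p. Slc12a5, the neuronal chloride exporter KCC2, averaged 4.84 ± 0.17 in ERD, 5.06 ± 0.15 in BLD and 5.43 ± 0.28 in STD (SD, n = 5 each). It differed between ERD and STD by -0.58 (adjusted p = 0.0929) without overlap of the arrays, which held for 3.77% of all probes. Egr2, an immediate early transcription factor, differed by -0.49 (adjusted p = 0.275). This list lay lower in ERD than in STD under each scaling tried, with 14 to 17 of 17 genes and medians between -0.26 and -0.40. The scalings reuse the same 15 arrays, ERD 1 among them, and so are not separate support. Among the scalings, Aquantile leaves the log2 ratios as they were and could not change the result. The list was also chosen with earlier results of these data known. The neuron markers lay lower too, 9 of 11 with a median of -0.26 and 7 to 9 of 11 over the scalings, with 0 called. Astrocyte (7 of 9, median -0.16), oligodendrocyte (7 of 9, -0.13) and endothelial and mural cell markers (6 of 8, -0.11) also lay mostly lower. So did those of hippocampus (6 of 8, -0.21), cerebellum (5 of 7, -0.16) and choroid plexus (5 of 6, -0.22). Microglia (4 of 8 lower), oligodendrocyte precursor (2 of 4) and cholinergic markers (3 of 6) split evenly. Lower values in ERD were thus not particular to genes tied to BDNF or to neurons. The summed Cy5 level of the neuron markers was 16.04 to 16.89 on ERD arrays, 16.09 to 16.66 on BLD arrays and 16.03 to 16.30 on STD arrays (log2). Their mean log2 ratio was 3.79 to 4.76 on ERD arrays, 4.52 to 5.11 on BLD arrays and 4.50 to 5.08 on STD arrays. The summed Cy5 level of the hippocampal markers (8 of 10 tested, 1 above background on no array) was 12.09 to 12.63 on ERD arrays, 12.24 to 12.86 on BLD arrays and 12.55 to 13.02 on STD arrays (log2). Their mean log2 ratio was 0.68 to 1.05 on ERD arrays, 0.88 to 1.11 on BLD arrays and 1.00 to 1.31 on STD arrays. The part of these marker lists in the values of the genes was not tested.

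The other neurotrophins, receptors and sortilin relatives split evenly in ERD against STD (4 of 9 lower, median 0.0054). The 2 of lowest p were Sorcs1, a relative of sortilin, at -0.30 (adjusted p = 0.468), and Kidins220, a scaffold of Trk receptors, at -0.49 (adjusted p = 0.489). Between BLD and STD all 9 lay higher (median 0.38, 0 called), a count that fell to 4 of 9 with the ratios of the scanner software. Of all 26338 probes, 15766 lay higher in BLD than in STD, with a median of 0.048.

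**Figure D4:**
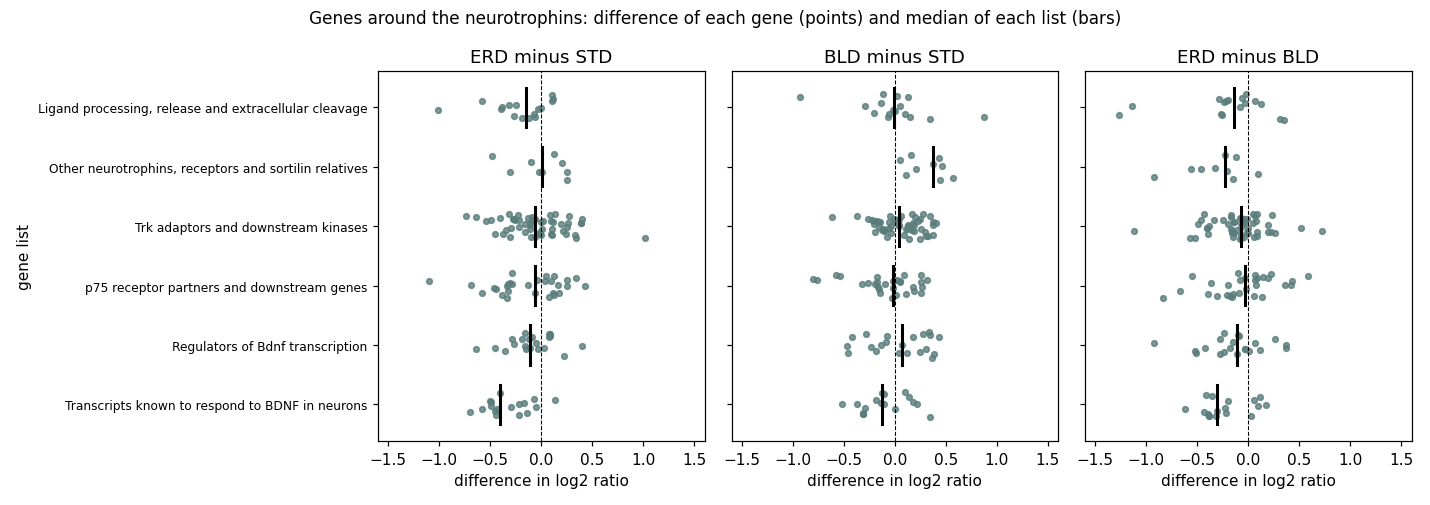
Difference in log2 ratio (horizontal axis) of each tested gene in the 6 lists (points, spread vertically for sight) and the median of each list (black bars), for ERD minus STD, BLD minus STD and ERD minus BLD. The transcripts known to respond to BDNF have the lowest median in ERD minus STD (-0.40), and Ndn is the lowest point among the p75 partners (-1.10).

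Genes whose log2 ratio followed each member most closely over the 15 arrays were found by Pearson r among the tested probes of other genes, as a description in which slide, scan day and depth are shared. Bdnf was followed most closely by Yipf5 (r = 0.90) and Naa50 (0.88). Ntf3 was followed by Folh1 (0.91) and 4930447C04Rik (0.91). Tekt1 was among those closest to Ngfr (0.93). The brightest probe of Ntrk2 was followed by Stmn1 (0.87) and Mc3r (0.87), that of Ntrk3 by Cdk5r1 (0.81) and Wnk2 (0.79), and that of Sort1 by Gm11627 (0.94) and Gucy1a1 (0.93). The Sort1 probe also correlated at 0.83 with the number of spots above background on the array.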

How the data were processed

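Total RNA of left hemibrain was labelled with Cy5 and a reference pool with Cy3 on all 15 arrays, per the labels. Spot and local background intensities of each channel were deposited as scanner output, per the file headers as median pixel values. The authors also deposited a value table of log10 ratios (Cy5 over Cy3), which match those in the scanner output within 5.0e-10. Agilent Feature Extraction was version 11.5.1.1 per the file headers and 10.7 per the submitters' processing notes. Files and gene reference name different genome builds, so no coordinates are given.

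Median intensities were background-corrected (normexp, offset 50) and loess-normalized within arrays with control spots at weight 0 (limma 3.58.1, R 4.3.3, package data.table at version 1.17.8). Outlier spots (0.574%) were left out and spots of a probe averaged. Of 55681 probes, 27656 with a symbol, 26338 were tested: those above background in Cy5 on at least 5 arrays, with at least 8 values. A single limma fit of the 3 diets (12 residual degrees of freedom) gave 2-sided tests, adjusted over all probes. Pathway genes were taken by their brightest probe. Named were all member probes and, of each list, up to 4 called genes or else the 2 of lowest p between ERD and STD. The values of a few genes that this rule names are not reported here. The members and lists were chosen with earlier results of these data known. Probe pairs were compared with exact permutation tests. Results were recomputed under 34 alternative settings, 15 of which left out 1 array. Aquantile scaling, counted among them, leaves the log2 ratios as they were and so repeats the reported results. The number of arrays limits the precision. Figures were drawn with matplotlib 3.10.9 and pandas 2.3.3 under Python 3.11.15.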

Additional observations from a re-analysis of the deposited data

Results flagged for a closer look

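In 4 of 39 groups of 5 arrays (13 probes in 3 diets) 1 array lay far from the other 4, by a test that marks about 1 group in 20 by chance, or 1.95 of 39. The ratio of Ntf3 A_55_P2021565 was 0.93 on STD 2, against 0.47 to 0.56 on the other STD arrays. Ntrk3 A_52_P500274 was at 4.59 on ERD 2, against 2.96 to 3.23 on the other ERD arrays. Ntrk3 A_55_P2056533 was at 0.30 on ERD 1, against 1.50 to 1.88 on the other ERD arrays. Sort1 A_51_P517145 was at -0.15 on ERD 1, against 0.04 to 0.11 on the other ERD arrays, and without ERD 1 its difference between ERD and STD was -0.40.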

How the results depend on the processing

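No member probe was called in BLD against STD or ERD against BLD under any of the 34 alternatives. Between ERD and STD 1 member probe, Sort1 A_51_P517145, was called with a normexp offset of 1, with the ratios of the scanner software or the deposited value table, with no detection filter (where the F test over diets also called 1), with slide as a random block and with array weights. Of the pathway genes, the 1 called between ERD and STD became 0 with those ratios, a normexp offset of 1, median centring, Cy5 alone, no detection filter, slide or scan day as a fixed block, only the 2 diets compared, without the 3 least correlated arrays and on the first scan day alone. It became 2 with Cy5 detection as a covariate and 3 with array weights, where 1 was also called between BLD and STD. Leaving out 1 array at a time gave 0 to 1 member probes and 0 to 2 pathway genes between ERD and STD. Without ERD 3 there were 1 member probe and 2 pathway genes. Calls over all probes ranged from 0 to 251 between ERD and STD (55 as reported), 0 to 41 between BLD and STD (2) and 0 to 1 between ERD and BLD (0). No paired analysis was possible because replicate numbers only follow the order of the samples, and slide was used as a block instead. Signals near background in Cy3 limit Ntf3 (above background on 0 arrays), Ntrk3 A_55_P2056533 (2), Ntrk2 A_65_P04961 (3) and Ntrk3 A_55_P2006808 (7), and those in both channels limit Sort1 A_51_P517145 (8 in each).

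The sign of an uncalled difference (log2) turned for 7 of 13 member probes between ERD and STD, 10 between BLD and STD and 9 between ERD and BLD under at least 1 alternative, and the causes were not tested. With the ratios of the scanner software, and the same from the deposited value table, the values were Ntrk3 A_55_P2006808 0.12, Ntrk2 A_51_P393454 0.0019, Ntrk3 A_66_P118329 0.017 and Ntrk3 A_52_P500274 0.12 in ERD against STD, Ntf3 A_55_P2021565 -1.02, Ntrk2 A_65_P04961 -0.24, Bdnf A_55_P2036303 -0.023 and Ntrk3 A_52_P500274 -0.18 in BLD against STD, and Ntf3 A_55_P2021565 0.24, Ngfr A_52_P236448 0.20, Ntrk2 A_51_P393454 0.29, Ntrk3 A_52_P500274 0.30 and Sort1 A_52_P590396 0.38 in ERD against BLD. With a normexp offset of 1 the values were Ntf3 A_55_P2021565 -0.029, Bdnf A_55_P2036303 -0.027 and Ntrk3 A_52_P500274 -0.26 in BLD against STD, and Ngfr A_52_P236448 0.36, Ntrk2 A_51_P393454 0.16, Ntrk3 A_52_P500274 0.18 and Sort1 A_52_P590396 0.36 in ERD against BLD. From Cy5 alone the values were Ntf3 A_55_P2021565 0.046 and Ntrk2 A_55_P2006792 0.25 in ERD against STD, Ntf3 A_55_P2021565 -0.056, Bdnf A_55_P2036303 -0.066 and Sort1 A_52_P590396 0.11 in BLD against STD, and Ntf3 A_55_P2021565 0.10 and Ngfr A_52_P236448 0.28 in ERD against BLD. With median centring the values were Sort1 A_55_P2076683 -0.014 in ERD against STD, Ntrk2 A_51_P393454 0.037, Ntrk3 A_55_P2056533 0.12, Sort1 A_51_P517145 0.064 and Sort1 A_52_P590396 0.033 in BLD against STD, and Ntrk3 A_55_P2006808 -0.023 and Ntrk3 A_66_P118329 -0.19 in ERD against BLD. With slide as a fixed block the values were Ntrk2 A_55_P2006792 0.092 in ERD against STD, Ntrk2 A_51_P393454 0.23, Ntrk3 A_55_P2056533 0.30 and Sort1 A_52_P590396 0.16 in BLD against STD, and Ntrk3 A_55_P2006808 -0.13 in ERD against BLD. With slide as a random block the values were Ntrk3 A_55_P2056533 0.042 in BLD against STD, and Ntrk3 A_55_P2006808 -0.009 in ERD against BLD. With scan day as a block the values were Ntrk2 A_55_P2006792 0.20 and Sort1 A_55_P2076683 -0.033 in ERD against STD, Ntrk3 A_55_P2056533 0.19, Ntrk2 A_55_P2006792 0.29 and Sort1 A_55_P2076683 -0.099 in BLD against STD, and Ntrk3 A_55_P2006808 -0.092, Ntrk2 A_55_P2006792 -0.087 and Sort1 A_55_P2076683 0.066 in ERD against BLD. On the first scan day alone (chosen after seeing the data) the values were Ntrk2 A_55_P2006792 0.21 and Sort1 A_55_P2076683 -0.014 in ERD against STD, Ntrk3 A_55_P2056533 0.43, Ntrk2 A_55_P2006792 0.26 and Sort1 A_55_P2076683 -0.14 in BLD against STD, and Ntrk3 A_55_P2006808 -0.40, Ntrk2 A_55_P2006792 -0.041 and Sort1 A_55_P2076683 0.12 in ERD against BLD. With array weights the values were Ntrk3 A_55_P2006808 -0.048 and Ntrk3 A_66_P118329 -0.046 in ERD against BLD. With Cy5 detection as a covariate the values were Ngfr A_52_P236448 0.11, Sort1 A_52_P590396 0.11 and Sort1 A_55_P2076683 0.0015 in ERD against BLD. Without ERD 1, BLD 3 and ERD 4, the least correlated arrays, the values were Ntrk2 A_55_P2006792 0.20 in ERD against STD, Ntrk2 A_51_P393454 0.053 and Ntrk3 A_55_P2056533 0.15 in BLD against STD, and Ngfr A_52_P236448 0.26, Ntrk3 A_55_P2006808 -0.025 and Sort1 A_52_P590396 0.031 in ERD against BLD. Leaving out 1 array at a time, values that turned ranged from -0.21 to 0.079 for Ngfr A_52_P236448 in ERD against BLD, -0.33 to 0.32 for Ntrk3 A_55_P2006808 in ERD against BLD, -0.018 to 0.18 for Ntrk3 A_66_P118329 in ERD against BLD, -0.26 to 0.21 for Ntrk2 A_55_P2006792 in ERD against STD, -0.014 to 0.14 for Sort1 A_55_P2076683 in ERD against STD, -0.0054 to 0.30 for Ntrk3 A_52_P500274 in BLD against STD, -0.17 to 0.078 for Sort1 A_52_P590396 in BLD against STD, -0.29 to 0.15 for Ntrk3 A_55_P2056533 in BLD against STD, and -0.26 to 0.053 for Ntrk2 A_51_P393454 in BLD against STD.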
